A study of Mus musculus with 2 samples.

Results

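Seromucous acinar cells are the secretory end-piece cells of the salivary gland, and the nuclei taken here as their main population numbered 8542 of the 142799 barcodes of the series. They comprised 5064 nuclei of the Csf2 null library and 3478 of the control library. The nuclei were chosen by their counts: a barcode was taken when it had at least 1000 UMIs (unique molecular identifiers, the counted molecules), less than 27% of them from 8 abundant secretory genes (Mucl2, Scgb1b27, Scgb2b27, Prol1, Smgc, Scgb2b26, Pip and Car6), at least 1 UMI in at least 4 of 10 marker genes, and at least 1 UMI in fewer than 3 of 6 excluding genes. The markers were Dgkg, D7Ertd443e, Il1rapl2, Egfem1, A830018L16Rik, Dnah11, Ripor2, Ddah1, Sox10 and Mad1l1, and the excluding genes were Muc19, Hpse2, Unc5c, Pex5l, Pdgfra and Slit3. Because these measured values chose the nuclei, the levels of those genes, and any comparison of the chosen nuclei with other barcodes of the same libraries, are descriptions without a test.

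The study prepared nuclei from total salivary gland of mice aged 20 days and made 10x Chromium 3' libraries from them without selecting a cell type. The null library carried the genotype Csf2-/- and the control library Csf2+/-, both on the background that the labels give as C56BL/6, so the control also carried the targeted allele on one chromosome. There was 1 library per genotype, so no test between genotypes was possible, no difference has a replicate check, and the intervals below (exact, 95%) cover counting error only. How many animals each library pooled, and whether the targeted deletion removes the 3' end that the assay reads, is not given in the sources used here. Csf2, which encodes the cytokine GM-CSF, had 0 UMIs in acinar nuclei of both libraries, which allows up to 0.255 CPM (UMIs per 1000000 UMIs of the group) in the null and 0.263 CPM in the control library. In the barcodes outside the acinar nuclei it had 0 UMIs in the null library, against 2 in other barcodes that passed the first steps of the rule and 3 in secretory-rich barcodes of the control library. These counts were too few to check the labels.

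Acinar cells make saliva in linked steps. Acetylcholine acts on muscarinic receptors and raises intracellular calcium, which opens the apical chloride channel encoded by Ano1 and basolateral potassium channels, while the cotransporter encoded by Slc12a2 loads the cell with chloride and the water channel encoded by Aqp5 lets water follow. Saliva proteins are folded in a large endoplasmic reticulum (ER) under the transcription factor genes Xbp1 and Bhlha15, stored in granules and released by exocytosis, which noradrenaline drives through beta-adrenergic receptors and cyclic AMP.

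The null acinar nuclei held 11751199 UMIs and the control acinar nuclei 11400242, with a median of 2142 and 3028 UMIs and 1198 and 1600 genes per nucleus. The secretory genes took a median of 19.9% of the UMIs of a null acinar nucleus and 15.5% of a control one, and mitochondrial genes 0.466% and 0.342%. Among all barcodes with at least 1000 UMIs the secretory share fell into a low and a high hump in each library. The 27% line cut the null distribution on its shoulder, with 5878 barcodes between 20% and 27% and 540 between 27% and 30%, and the control distribution in its trough, with 755 and 159. Barcodes of any depth at or above 27%, called secretory-rich here, numbered 60993 in the null and 59977 in the control library, and their secretory share had a median of 45.5% and 36.4%. The barcodes below 27% with at least 1000 UMIs are called eligible, and those among them that the marker rule left out are called other eligible barcodes (8032 null and 4906 control). The libraries shared 1367 barcode sequences, of which 3 were acinar nuclei in both. The Y-linked genes Ddx3y, Uty, Kdm5d and Eif2s3y had 0 UMIs in acinar nuclei of either library.

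**Figure D1:**
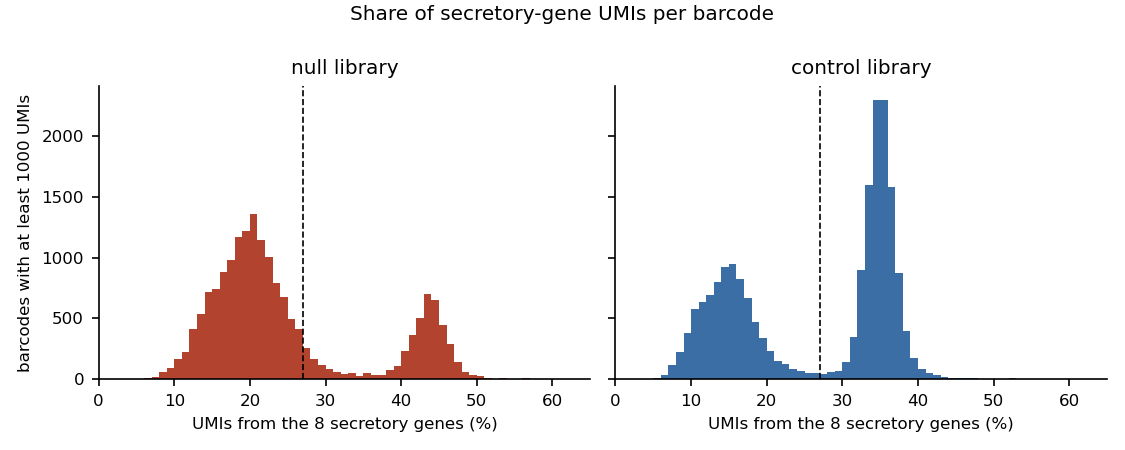
The share of UMIs from the 8 secretory genes (x axis, percent) is plotted against the number of barcodes with at least 1000 UMIs (y axis), for the null library on the left and the control library on the right, with a dashed line at 27%. The null library had its low hump near 20% and the control library near 15%, and the line cut 5878 null and 755 control barcodes between 20% and 27% to the acinar side.

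Acinar nuclei made up 38.7% of the eligible barcodes in the null library (37.8 to 39.5) and 41.5% in the control library (40.4 to 42.5). The null share over the control share was -0.10 on the log2 scale (-0.16 to -0.04). Among all barcodes with at least 1000 UMIs they made up 28.7% (28.0 to 29.3) in the null and 17.9% (17.4 to 18.5) in the control library, and of all barcodes in the files 6.81% (6.63 to 6.996) and 5.08% (4.92 to 5.25). The order of the libraries thus turned with the denominator. It also turned when every eligible barcode was thinned to 1000 UMIs before the markers were counted, which left 2226 null nuclei (17.0%, 16.4 to 17.7) and 1294 control nuclei (15.4%, 14.7 to 16.2). The deeper control nuclei showed more markers each, and exactly 4 of the 10 were seen in 29.98% of null and 20.1% of control nuclei. No order of acinar abundance between the genotypes is therefore given.

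The chosen nuclei were set against 3 groups of other eligible barcodes that held both genes of an excluding pair and of no other. These were Muc19 with Hpse2 (1123 null and 539 control), Unc5c with Pex5l (403 and 412) and Pdgfra with Slit3 (878 and 726). A barcode with a pair but at least 4 markers and fewer than 3 excluding genes counted as acinar and was left out of its group. The rule thus shaped the marker levels on both sides. After thinning to 1000 UMIs, which matches depth, Dgkg, a diacylglycerol kinase gene, was seen in 49.4% of null and 37.3% of control acinar nuclei, against 6.61% to 8.82% of the null and 5.92% to 9.28% of the control pair groups. Sox10, a transcription factor gene of the developing acinar and glial lineages, was seen in 37.9% and 24.3% of acinar nuclei, against 9.97% and 6.68% of the Muc19 and Hpse2 barcodes. Ddah1, which encodes an enzyme that breaks down dimethylarginine, was the marker seen least, in 10.1% and 12.8% of acinar nuclei. No marker was near universal after thinning, and Mad1l1, a spindle checkpoint gene, was seen most often, in 50.5% and 58.3%.

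Of the excluding genes, Muc19, the gene of a gel-forming mucin, was seen in 79.8% of null and 56.2% of control acinar nuclei after thinning. The Pdgfra and Slit3 barcodes, which have genes of connective tissue, gave 77.0% and 54.4%, so the detection of Muc19 in acinar nuclei was at the level of a group that should lack it. The other 5 excluding genes were seen in 0.869% (Pex5l) to 3.28% (Hpse2) of null and 0.748% (Pex5l) to 4.34% (Unc5c) of control acinar nuclei. The excluding rule removed 244 null barcodes (4.597%) and 293 control barcodes (7.77%) that had at least 4 markers.

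**Figure D2:**
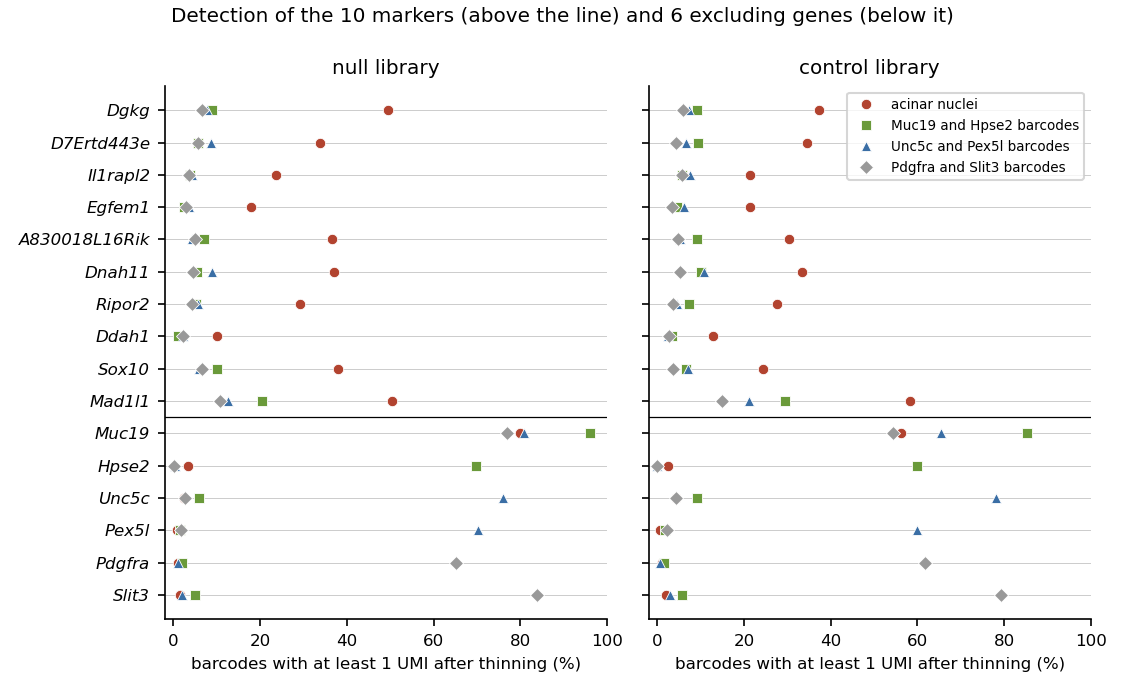
The percentage of barcodes with at least 1 UMI after thinning to 1000 UMIs (x axis) is plotted for the 10 markers above the line and the 6 excluding genes below it (y axis), for acinar nuclei and the 3 pair groups, with the null library on the left and the control library on the right. Each marker lay furthest right in acinar nuclei in both libraries, an order that the rule itself favours. Muc19 was seen in 79.8% and 56.2% of acinar nuclei and in 77.0% and 54.4% of the Pdgfra and Slit3 barcodes.

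On either side of the limits the nuclei differed in degree. The 1518 null and 700 control nuclei with exactly 4 markers had Bhlha15 at 419 and 484 CPM, and the 1393 and 630 barcodes with 3 markers at 379 and 282 CPM. The 270 null and 11 control nuclei with a secretory share of 25% to 27% had Bhlha15 at 474 and 510 CPM, against 328 and 473 CPM in the 100 and 18 barcodes at 27% to 29%. The 879 and 911 nuclei with 2 excluding genes had 402 and 499 CPM, against 299 and 394 CPM in the 197 and 238 barcodes with 3. Few lay near the UMI limit, with 37 null and 4 control nuclei less than about 100 UMIs above it and 12 and 3 otherwise fitting barcodes less than about 100 below. Since Bhlha15 averaged 209 and 176 CPM over all other eligible barcodes, those with 3 markers stood between that level and the acinar one. Slc12a2 was also lower outside the marker and excluding limits, but not outside every limit. In the control library it had 1137 CPM at 25% to 27% and 1184 CPM at 27% to 29%. In the few null and control barcodes just above the UMI limit it had 1126 and 1430 CPM, and just below 1637 and 2090 CPM.

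The label was checked against 17 textbook genes of acinar cells that the rule did not use. Bhlha15, the transcription factor gene also known as Mist1 that organises secretory granules, stood at 446 CPM in null and 538 CPM in control acinar nuclei, against 209 and 176 CPM in other eligible barcodes. Slc12a2, the sodium-potassium-chloride cotransporter gene, stood at 1211 and 1808 CPM, against 779 and 971 CPM. Ano1 stood at 271 and 311 CPM, against 142 and 131 CPM. Each of these was higher in the acinar nuclei of both libraries.

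Kcnn4, the calcium-activated potassium channel gene, had 462 and 364 CPM in acinar nuclei, against 218 and 133 CPM in other eligible barcodes. Lpo, which encodes the antibacterial enzyme lactoperoxidase, had 231 and 365 CPM, against 113 and 124 CPM. Chrm3, the main muscarinic receptor gene of the acinar cell, had 2935 and 3112 CPM, against 1840 and 1874 CPM. Of the 17 genes, 10 were above the other eligible barcodes in both libraries and 3 at least 2-fold so, where 36.4% and 1.1% of all genes were.

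Other acinar genes marked these nuclei less or not at all. Aqp5 had 164 CPM in null and 139 CPM in control acinar nuclei, against 129 and 92.6 CPM in other eligible barcodes, and was higher still in secretory-rich barcodes, at 212 and 169 CPM. The demilune protein genes Dcpp1, Dcpp2 and Dcpp3 were below other eligible barcodes in both libraries, by 0.09 to 0.19 on the log2 scale, and lower again than in secretory-rich barcodes, for example 5811 and 1140 CPM of Dcpp3 against 16628 and 3424 CPM. Amy1, the amylase gene that defines serous cells of the parotid gland, had 8.17 and 13.6 CPM, and Chrm1, a second muscarinic receptor gene, had 3.23 and 2.28 CPM. Chrm3 was also high in the Muc19 and Hpse2 barcodes, at 2384 and 2638 CPM, and in the Unc5c and Pex5l barcodes, at 2394 and 2548 CPM. Slc12a2 had 895 and 1174 CPM in the first of these groups and 1050 and 1363 CPM in the other. The label thus held for Bhlha15, Ano1, Kcnn4 and Lpo, and less sharply for Slc12a2 and Chrm3. It did not hold for Chrm1, Amy1 or the Dcpp genes.

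Markers of other gland cells were seldom seen together. At least 3 of 11 fibroblast markers were seen in 0.296% of null and 0.403% of control acinar nuclei after thinning, at least 3 of 9 macrophage markers in 0.138% and 0.259%, at least 3 of 8 endothelial markers in 0.0790% and 0.144%, and, counted on all UMIs, at least 3 of 8 intercalated duct markers in 4 null (0.0790%) and 4 control nuclei (0.115%). Mucous markers were seen in 1.56% and 1.15%, against 6.499% and 4.22% of other eligible barcodes. At least 3 of 8 ionocyte markers were seen in 0.257% and 0.489% after thinning, against 1.83% and 3.61% of other eligible barcodes. The ionocyte list yet took more of the UMIs in acinar nuclei, 0.407% and 0.339%, than in other eligible barcodes, 0.232% and 0.226%. By number of markers seen, the list of 11 luminal duct markers was the exception. It reached 21.7% and 25.1% of acinar nuclei, against 24.7% and 31.2% of other eligible barcodes. Its Esrrg, the gene of an estrogen-related receptor, reached 4023 and 4544 CPM in acinar nuclei, and its Egf, the epidermal growth factor gene, 246 and 257 CPM, which was 0.90 and 0.91 above other eligible barcodes on the log2 scale. Its duct-defining Scnn1b, a subunit gene of the epithelial sodium channel, had 15.3 and 18.4 CPM, which was 1.82 and 2.01 lower than in other eligible barcodes on the log2 scale.

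Of 10263 genes with at least 50 UMIs in the acinar nuclei of each library, 113 (1.1%) were at least 2-fold above other eligible barcodes in both. The 25 highest that the rule did not use included enzymes, transporters and signalling genes rather than saliva proteins. Slc37a2, a sugar phosphate transporter gene, had 197 CPM in null and 165 CPM in control acinar nuclei, against 73.5 and 49.9 CPM in other eligible barcodes and 56.7 and 63.8 CPM in secretory-rich barcodes. Myrip, whose protein links granules that carry RAB27 to myosin, had 286 and 342 CPM, against 112 and 108 CPM in other eligible barcodes. Its level in the Muc19 and Hpse2 barcodes, 177 and 256 CPM, was closer than in the Unc5c and Pex5l barcodes, 64.8 and 83.4 CPM.

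Chn2, which encodes a RAC-GTPase-activating protein that binds diacylglycerol, had 345 and 488 CPM in acinar nuclei, against 138 and 154.5 CPM in other eligible barcodes. Rasgrp1, an exchange factor gene for RAS whose protein also binds diacylglycerol, had 65.6 and 62.9 CPM, against 26.3 and 19.1 CPM. Cd44, the hyaluronan receptor gene, had 439 and 631 CPM, against 184 and 218 CPM. Slc7a5, a transporter gene for large neutral amino acids, had 163 and 198 CPM, against 66.9 and 60.1 CPM.

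Lmx1b, a LIM-homeodomain transcription factor gene, had 115 and 86.1 CPM in acinar nuclei, but 114 and 90.6 CPM in the Unc5c and Pex5l barcodes, so it did not separate those groups. It was low in the Muc19 and Hpse2 barcodes, at 19.1 and 20.4 CPM. Adora1, an adenosine receptor gene, had 20.8 and 29.2 CPM, against 8.01 and 8.51 CPM in other eligible barcodes. Nfil3, a transcription factor gene tied to the clock, had 162 and 268 CPM, against 65.1 and 82.9 CPM. Ret, the receptor gene for neurotrophic ligands of the GDNF family, had 67.1 and 57.6 CPM, against 28.6 and 21.1 CPM. The remaining named genes of this group were Apol7a, Adtrp, Pik3c2g, Uox, 4930447A16Rik, 4930594C11Rik, Ero1b, C1rl, H6pd, Fam234b, Ckm, Arhgef19, Kif5c, Ehd3 and Dusp5.

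Genes of the ER were the list that most often stood above other eligible barcodes. The list took 0.721% of null and 0.754% of control UMIs in acinar nuclei, and 0.502% and 0.474% in other eligible barcodes. The Muc19 and Hpse2 barcodes had 0.599% and 0.638%, and the Unc5c and Pex5l barcodes 0.615% and 0.662%. The Pdgfra and Slit3 barcodes had 0.371% and 0.386%, so the list stood out less against the first 2 of these groups. Of 33 genes measured, 31 were above other eligible barcodes in both libraries, with a median log2 ratio of 0.52 in the null and 0.52 in the control library, where 36.4% of all genes were above and the medians of all genes were -0.06 and -0.06. Hspa5, the gene of the chaperone BiP, had 248 CPM in null and 228 CPM in control acinar nuclei, with log2 ratios over other eligible barcodes of 0.56 and 0.51. Dnajc3, a BiP cochaperone gene, had 465 and 330 CPM and ratios of 0.69 and 0.70. Calr, the gene of the lectin chaperone calreticulin, had 159 and 149 CPM and ratios of 0.52 and 0.49. Ero1b, an oxidase gene that supplies disulfide bonds and one of the 25 highest genes, was not on the list. It had 241 and 261 CPM, against 99.6 and 96.3 CPM. The 2 exceptions in the list were Sec23b and Creb3l4, both higher in the Muc19 and Hpse2 barcodes than in acinar nuclei.

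The 250 bases before the start sites of the genes of the ER list were searched for the ER stress element, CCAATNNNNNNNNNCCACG, on both strands. The stretches come from RefSeq on build GRCm38.p6, while the counts were made on GRCm39, so no coordinate was carried between them. Of 29 genes of the list with a stretch, 8 (27.6%) held it: Calr, Canx, Creld2, Dnajc3, Hsp90b1, Hspa5, Pdia6 and Syvn1. Of all 27025 genes with such a stretch 35 (0.130%) held it, and of the 29 highest and marker genes with one, only Ero1b did (3.45%). A match is a description of these letters, not a site shown to work in these cells. The list was drawn up as genes of the ER, so its share with the element describes that choice. Why these genes were higher in acinar nuclei was not tested. The core of the unfolded protein response element, TGACGTG, was in 2 of the 29 ER genes (6.90%) and 1.85% of all genes. It was in 3 of the 29 highest and marker genes (10.3%), a larger share than in the ER genes. The SOX core ACAAAG was in 7 of the 29 highest and marker genes (24.1%), 4 of the 29 ER genes (13.8%) and 18.6% of all genes. These 4 stretches are shown because they carry the element, in Hspa5, Calr and Dnajc3 of the list and in Ero1b outside it. The 4 stretches have the ER stress element and, in Hspa5, the TGACGTG core in capitals. They run 5′ to 3′ on the strand of the gene, and in Calr and Ero1b the element reads on the other strand. They lie at chr2:34771840-34772089 (+) for Hspa5, chr8:84846932-84847181 (-) for Calr, chr14:118937682-118937931 (+) for Dnajc3 and chr13:12565633-12565882 (+) for Ero1b.
Hspa5: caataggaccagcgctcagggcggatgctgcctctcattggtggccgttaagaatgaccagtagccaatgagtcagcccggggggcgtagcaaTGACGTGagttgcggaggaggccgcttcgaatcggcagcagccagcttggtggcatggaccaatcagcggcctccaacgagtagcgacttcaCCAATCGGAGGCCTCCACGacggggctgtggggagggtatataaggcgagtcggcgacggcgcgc
Calr: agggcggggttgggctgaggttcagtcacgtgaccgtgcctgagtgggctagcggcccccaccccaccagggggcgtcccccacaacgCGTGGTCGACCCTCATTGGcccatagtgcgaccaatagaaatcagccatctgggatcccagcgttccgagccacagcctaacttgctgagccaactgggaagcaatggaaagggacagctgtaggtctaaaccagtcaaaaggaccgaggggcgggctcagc
Dnajc3: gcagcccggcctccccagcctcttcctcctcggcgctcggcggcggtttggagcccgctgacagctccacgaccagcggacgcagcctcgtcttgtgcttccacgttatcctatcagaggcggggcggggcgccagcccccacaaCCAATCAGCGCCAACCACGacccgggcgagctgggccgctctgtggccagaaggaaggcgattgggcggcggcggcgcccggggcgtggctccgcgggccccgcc
Ero1b: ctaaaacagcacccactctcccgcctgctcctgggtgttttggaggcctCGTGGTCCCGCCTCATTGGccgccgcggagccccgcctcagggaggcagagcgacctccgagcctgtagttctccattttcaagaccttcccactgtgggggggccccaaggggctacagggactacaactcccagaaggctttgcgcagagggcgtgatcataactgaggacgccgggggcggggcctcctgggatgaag

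The acinar nuclei were then divided into 11 subclusters. Subclusters 1, 2 and 3 were large and together held 4412 null nuclei (87.1%, 86.2 to 88.0) and 3041 control nuclei (87.4%, 86.3 to 88.5), and are called the core. Subcluster 1 held 3196 null and 58 control nuclei, subcluster 2 held 29 and 2973, and subcluster 3 held 1187 and 10. The core thus split by library, and at the finer and coarser resolutions tried (1.0 and 0.3) each large subcluster again drew 97.1% to 99.6% of its nuclei from 1 library. A subcluster that is mostly 1 library may be that library, not a cell state, and with 1 library per genotype preparation and genotype cannot be told apart.

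The 8 small subclusters mixed the libraries and were led by genes of other programmes. Subcluster 5 (119 null and 85 control nuclei, 2.35% and 2.44%) was led by the mitotic genes Troap, Kif4 and Knl1. Subcluster 7 (104 and 48) had Hpse2 and Adcy2, subcluster 10 (41 and 36) had Cd84 and F13a1, the second a macrophage marker, and subcluster 11 (18 and 16) had Clnk, Hepacam2 and Stap1, the last an ionocyte marker. Subcluster 6 (92 and 70) had Slit3 with Flt1, a vascular receptor gene, and subcluster 4 (129 and 97) had Zfp536, Cadm2 and Csmd1. Subcluster 8 (92 and 53) had Glis3 and Kcne1, and subcluster 9 (57 and 32) had Tafa1 and Dclk1. The median nucleus of every small subcluster had 2692 to 3655 UMIs in the null library, where the core subclusters that null nuclei filled (1 and 3) had 2236 and 1615. In the control library the small ones had 3618 to 4996 and subcluster 2 had 2934. Scrublet, a doublet caller, marked 9 of 13096 null and 3 of 8384 control eligible barcodes, which is too few for it to have worked, and whether the small subclusters hold droplets with more than 1 nucleus was not tested.

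**Figure D3:**
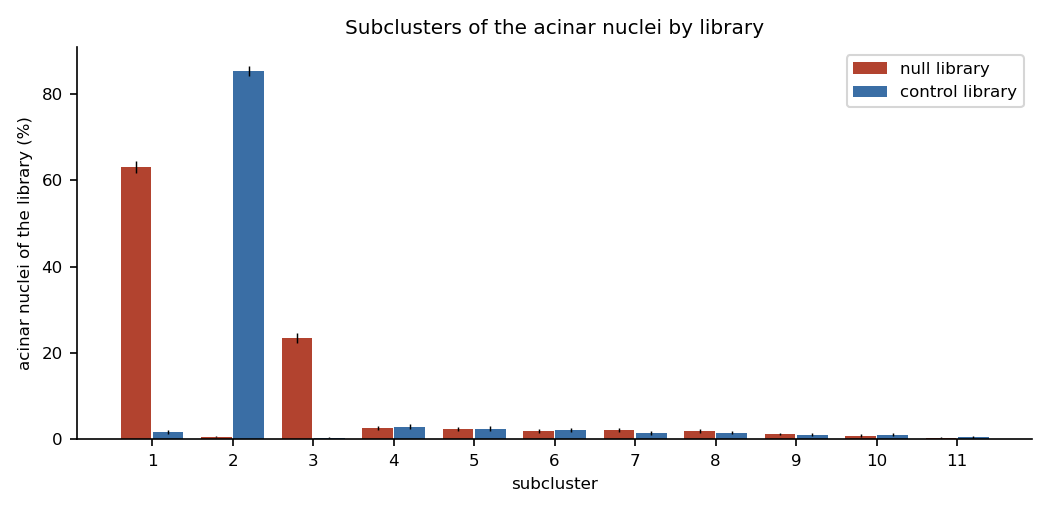
The percentage of each library's acinar nuclei (y axis, with exact 95% binomial intervals) is plotted for the 11 subclusters (x axis), null bars left of control bars. Subclusters 1 and 3 held 63.1% and 23.4% of null nuclei, subcluster 2 held 85.5% of control nuclei, and the other 8 held under 3% each of either library.

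For the comparison of genotypes the UMIs of all acinar nuclei were summed per library. Of 12040 genes with at least 50 UMIs over both libraries, 134 (1.11%) were at least 2-fold higher and 103 (0.855%) at least 2-fold lower in null acinar nuclei. Of these 237 genes, 221 had a ratio of the same direction in secretory-rich barcodes, so most were not particular to acinar nuclei. Those at least 2-fold higher and lower numbered 95 and 62 in other eligible barcodes, and 104 and 320 in secretory-rich barcodes. The median log2 ratio of all genes, null over control, was -0.06 in acinar nuclei, -0.07 in other eligible barcodes and -0.30 in secretory-rich barcodes, and values in the last are read against that shift. The genes named next were picked by the bound of their interval nearest to no difference.

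Slc15a2, which encodes a proton-coupled peptide transporter, had the largest ratio of the higher genes. It had 481 UMIs (40.9 CPM) in null acinar nuclei, against 60 (5.26 CPM) in control acinar nuclei, which was 2.96 on the log2 scale (2.57 to 3.37). It stood at 1.70 in other eligible and 1.74 in secretory-rich barcodes. Slc15a2 was thus higher in the null library in all 3 groups, and by more in acinar nuclei, a difference that was not tested.

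The Dcpp genes came next by that bound. Dcpp3 had 5811 CPM in null and 1140 CPM in control acinar nuclei, Dcpp2 had 4118 and 884 CPM, and Dcpp1 had 2650 and 538 CPM, with log2 ratios of 2.35, 2.22 and 2.30. In secretory-rich barcodes the ratios were 2.28, 2.11 and 2.16, and the levels there were higher than in acinar nuclei in both libraries. The 3 genes are near-identical neighbours, so how reads were divided among them is uncertain. When the secretory-rich profile was subtracted from the acinar sums, none of the 3 kept UMIs enough for a ratio. The subtraction removed 41.0% of null and 40.7% of control acinar UMIs. A gene with a much higher level in secretory-rich barcodes thus loses its UMIs by construction, and where the RNA of these genes came from was not tested.

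Pglyrp1, an antibacterial peptidoglycan recognition protein gene, had 46.5 CPM in null and 12.6 CPM in control acinar nuclei, and Wfdc18, a secreted whey acidic protein family gene, had 320 and 134 CPM. Neither had a ratio after the subtraction, like the Dcpp genes, and the source of their RNA was likewise not tested. Also among the 12 highest were Gng3 at 11.7 and 2.46 CPM, a G protein gamma subunit gene, and Tmed1 at 29.8 and 10.3 CPM, a gene of ER to Golgi cargo transport. With them stood Catsperb at 28.2 and 10.6 CPM, Ccdc24 at 12.2 and 3.68 CPM, Cntnap2 at 9.96 and 2.89 CPM, and Fam25c at 7.15 and 2.11 CPM. Cntnap2 and Fam25c also had no ratio after the subtraction. Cntnap2 was higher in the Unc5c and Pex5l barcodes, at 215 and 46.4 CPM, than in acinar nuclei. Smr3a, a submaxillary gland androgen-regulated protein gene, had 0 UMIs in null and 55 in control acinar nuclei, at least 18.9-fold lower in the null library with a floor of 3 counts in that library.

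Among the lower genes were several that respond to insulin or fasting. Irs2, the insulin receptor substrate gene that FOXO factors raise on fasting in liver, had 130 CPM in null and 380 CPM in control acinar nuclei, a log2 ratio of -1.55 (-1.63 to -1.46). Ppargc1a, the gene of the mitochondrial coactivator PGC-1alpha, had 188 and 481 CPM, a ratio of -1.35 (-1.43 to -1.28), which was -0.99 in the core. Bcl6, the gene of a transcriptional repressor, had 83.0 and 205 CPM, a ratio of -1.30 (-1.41 to -1.20). In secretory-rich barcodes these 3 ratios were -1.37, -1.75 and -1.25. Each was lower in the null library in both kinds of barcode. Irs2 and Bcl6 had higher levels in acinar nuclei than in other eligible barcodes. Ppargc1a had higher levels in other eligible barcodes, at 404 and 1283 CPM, with a ratio of -1.67 there. What part RNA of other cells has in the acinar ratio of Ppargc1a was not tested.

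Other lower genes were 2310057J18Rik at 115 and 336 CPM, Clip2 at 15.0 and 36.1 CPM, and Dusp1 at 98.2 and 210 CPM. Lrrk2, a kinase gene tied to Parkinson disease in humans, stood at 21.0 and 51.1 CPM, and Pde10a at 42.0 and 92.6 CPM. Both were higher in other eligible barcodes, at 85.3 and 188 CPM of Lrrk2 and 297 and 576 CPM of Pde10a. Lrrk2, like Hbb-bs below, had no ratio after the secretory-rich profile was subtracted. Hbb-bs, a beta-globin gene of red cells, at 1.79 and 9.65 CPM, Hepacam2, an ionocyte gene, at 2.21 and 6.93 CPM, St6gal1, a sialyltransferase gene, at 3.404 and 9.74 CPM, and Vmn2r17 at 2.21 and 7.63 CPM had few UMIs in either library. Hbb-bs had 5.76 and 28.9 CPM in secretory-rich barcodes, and what part red cell RNA has in other results was not tested.

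**Figure D4:**
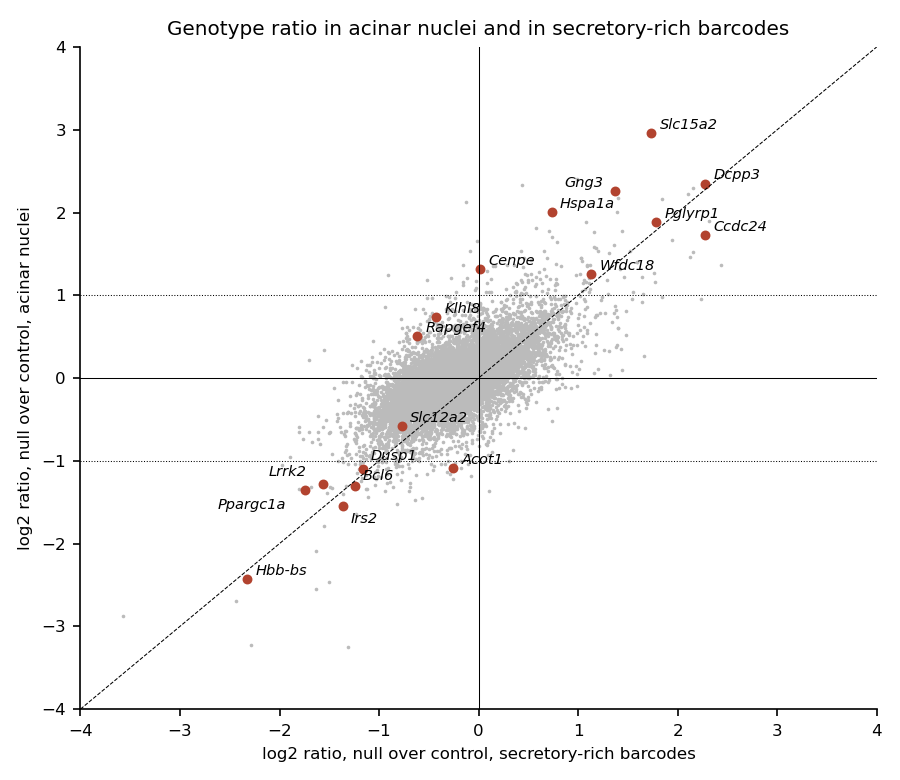
Each of 12038 genes is a point, with its log2 ratio of null over control in secretory-rich barcodes on the x axis and in acinar nuclei on the y axis, a dashed line where both are equal and dotted lines at 2-fold in acinar nuclei. Named genes are in red: Slc15a2 and Dcpp3 lay at 2.96 and 2.35 in acinar nuclei, Irs2 at -1.55, and Cenpe at 1.32 where secretory-rich barcodes were at 0.01.

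A second set was named for the distance between the acinar and the secretory-rich ratio. Mthfd1l, a mitochondrial folate enzyme gene, had 17.9 CPM in null and 14.5 CPM in control acinar nuclei, against 6.28 and 11.7 CPM in secretory-rich barcodes, log2 ratios of 0.30 and -0.90. Klhl8 had 11.0 and 6.58 CPM, against 6.20 and 8.35 CPM, ratios of 0.74 and -0.43, and Rapgef4, a cyclic AMP sensor gene, had 11.1 and 7.81 CPM, against 7.08 and 10.8 CPM, ratios of 0.50 and -0.62. These 3 pointed in opposite directions in the 2 kinds of barcode. Cftr, a chloride channel gene, had a ratio of -0.03 in acinar nuclei and -1.14 in secretory-rich barcodes, Cntn5 had 0.20 and -1.07, and Kif26b had 0.28 and -0.85, and all 3 acinar intervals included 0. In the core, without the small subclusters, Cntn5 was at -1.32 and Kif26b at -0.59.

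At the other end Acot1, an acyl-CoA thioesterase gene, had 5.79 and 12.3 CPM in acinar nuclei, a ratio of -1.09, against -0.25 in secretory-rich barcodes. Kcne1, 4930447A16Rik, Eif4ebp1, Dohh, Imp3, Hilpda and Itgb2l had acinar ratios between -0.31 and 0.40 and secretory-rich ratios between 0.49 and 1.39. Imp3, a gene of ribosomal RNA processing, had 55.9 and 55.7 CPM in acinar nuclei but 79.6 and 44.4 CPM in secretory-rich barcodes.

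The genes of fluid secretion were spread around no difference, with 5 of 23 above and 7 below 0 by their intervals, where 15.4% and 27.2% of all genes were. Their median log2 ratio was -0.06. Slc12a2 was lower in null acinar nuclei, at 1211 CPM against 1808 CPM, a ratio of -0.58 (-0.61 to -0.55). Ano1 was at -0.20 (-0.27 to -0.13). Kcnma1, a large-conductance potassium channel gene, had 4019 and 3321 CPM, a ratio of 0.28 (0.26 to 0.30), and its partner gene Lrrc26 was at 0.50 (0.30 to 0.71), Kcnn4 at 0.34 (0.29 to 0.40) and Aqp5 at 0.25 (0.15 to 0.34). The chloride loader and the chloride channel were thus lower, while these potassium channel genes and the water channel gene were higher. The same directions held in secretory-rich barcodes, where Slc12a2, Ano1, Kcnn4 and Aqp5 were at -0.77, -0.56, 0.37 and 0.33. In other eligible barcodes these genes were at -0.32, 0.12, 0.71 and 0.48.

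Of the autonomic receptors, Chrm3 had a ratio of -0.08 (-0.11 to -0.06) and Adrb1, a beta-adrenergic receptor gene, had 204 CPM in null and 167 CPM in control acinar nuclei, a ratio of 0.29 (0.20 to 0.38). Adra1a, an alpha-adrenergic receptor gene, was 2.33 and 2.15 below its level in other eligible barcodes on the log2 scale and had 25.5 and 41.4 CPM, a ratio of -0.70 (-0.91 to -0.49). Downstream, Plcb4, a phospholipase C gene, had 2812 and 3654 CPM, a ratio of -0.38, Adcy8, an adenylyl cyclase gene, 864 and 1144 CPM, a ratio of -0.40, and Pde3a, a phosphodiesterase gene, 541 and 755 CPM, a ratio of -0.48. Gna14, a G protein subunit gene of the Gq family, had 60.8 and 39.5 CPM, a ratio of 0.62 (0.45 to 0.80), and Dgkg was at 0.44. Dgkg helped to choose the nuclei, so its ratio, and any count that includes it, is a description alone. In secretory-rich barcodes its ratio was -0.42. Of the 33 second messenger genes 6 lay above 0, close to the 15.4% of all genes, and 13 below, where 27.2% of all genes did.

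The exocytosis genes had a median of -0.00082 over 20 genes, 3 above and 8 below, where 15.4% and 27.2% of all genes were. Vamp8, the vesicle SNARE gene of granule release, had 58.9 CPM in null and 43.6 CPM in control acinar nuclei, a ratio of 0.43, and Sytl1, a RAB27 effector gene, 175 and 134 CPM, a ratio of 0.38. Myrip was at -0.26 and Rab27b at -0.18. Of the mucin-type glycosylation genes 2 of 20 lay above and 11 below, beside 15.4% and 27.2% of all genes, with a median of -0.24. St3gal4, a sialyltransferase gene, had 2767 and 3495 CPM, a ratio of -0.34, Galnt7, which extends O-glycans, 1086 and 1429 CPM, a ratio of -0.40, and B4galt1, a galactosyltransferase gene, 360 and 510 CPM, a ratio of -0.50. In other eligible barcodes these 3 ratios were 0.09, -0.06 and -0.11.

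Nuclear genes of the respiratory chain were all higher in null acinar nuclei. Of 32 genes, 32 had a log2 ratio above 0, where 41.4% of all genes did, and 31 had an interval above 0, where 15.4% of all genes did, with a median of 0.53. Cox4i1, a cytochrome c oxidase subunit gene, had 159 CPM in null and 102 CPM in control acinar nuclei, a ratio of 0.65 (0.54 to 0.75), and Ndufa1, a complex I subunit gene, had 36.2 and 19.5 CPM, a ratio of 0.89 (0.66 to 1.13). Ndufb2 had an interval that included 0. The same list had a median of 0.44 in other eligible and 0.44 in secretory-rich barcodes, with 32 of 32 above 0 in each. Its members took a smaller share of UMIs in acinar nuclei, 0.243% and 0.169%, than in secretory-rich barcodes, 0.553% and 0.404%, and what part RNA of the secretory-rich kind has in the acinar ratio was not tested.

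Secreted products were more often higher. Of 19 genes measured, Smr3a aside, 15 lay above 0 and 2 below by their intervals, where 15.4% and 27.2% of all genes did, with a median of 0.51 in acinar nuclei and 0.48 in secretory-rich barcodes. The 8 secretory genes that helped to choose the nuclei were among the 15, and the 27% limit shaped their ratios. The count and the median that include them are thus descriptions alone. One of these 8 genes, Prol1, was at 0.098 in acinar nuclei and -0.051 in secretory-rich barcodes. Lpo was one of the 2 lower, at 231 CPM in null and 365 CPM in control acinar nuclei, a ratio of -0.66 (-0.73 to -0.59), and Amy1 the other, at -0.73 (-1.12 to -0.36). Lpo was also one whose level in acinar nuclei exceeded that in secretory-rich barcodes, 147 and 219 CPM. Bpifa2, which encodes a parotid secretory protein, had 133 and 78.2 CPM, a ratio of 0.77, against 0.80 in secretory-rich barcodes.

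The ER list, which stood above other eligible barcodes in acinar nuclei, had a median ratio of -0.02 between genotypes. Of 33 genes, 12 lay above 0 and 13 below by their intervals, where 15.4% and 27.2% of all genes did. Dnajb9, a BiP cochaperone gene, had 52.2 CPM in null and 28.0 CPM in control acinar nuclei, a ratio of 0.90 (0.70 to 1.10). Dnajc3 was at 0.50 (0.44 to 0.56), Hsp90b1 at 0.42 (0.34 to 0.49) and Hspa5 at 0.12 (0.04 to 0.20). The sensor gene Atf6 had 173 and 255 CPM, a ratio of -0.56 (-0.64 to -0.48), Creb3l1 had 567 and 767 CPM, a ratio of -0.44, and Xbp1 was at -0.20. Canx and Pdia6, also of the folding machinery, were at -0.02 and -0.11 with intervals that included 0. The named transcription factor genes of the response were thus lower, while the chaperone genes ran from -0.11 to 0.90.

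Lineage transcription factor genes had 3 of 28 intervals above 0 and 16 below (all genes 15.4% and 27.2%) and a median of -0.23. Barx2, a homeobox gene, had 390 CPM in null and 555 CPM in control acinar nuclei, a ratio of -0.51 (-0.57 to -0.46), Ehf, an epithelial ETS factor gene, 395 and 545 CPM, a ratio of -0.47, and Bhlha15 a ratio of -0.27 (-0.32 to -0.22). In other eligible barcodes Bhlha15 stood at 0.25. The 3 above 0 were SOX genes. Sox10 had 468 and 266 CPM, a ratio of 0.82 (0.75 to 0.88), Sox9, which marks progenitors of the gland, had 146 and 95.1 CPM, a ratio of 0.62 (0.50 to 0.73), and Sox2 had 53 and 23 UMIs, a ratio of 1.16 (0.43 to 1.93). Sox10 helped to choose the nuclei, and the same rule shaped its level in other eligible barcodes, so its ratio is a description alone.

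Growth factor genes had 6 of 33 above 0 and 12 below, close to the 15.4% and 27.2% of all genes, with a median of -0.11. Fgfr2, the receptor gene for FGF10 that drives branching of the gland, had 1076 CPM in null and 1199 CPM in control acinar nuclei, a ratio of -0.16 (-0.19 to -0.12), and Erbb4, a neuregulin receptor gene, had 988 and 887 CPM, a ratio of 0.16 (0.12 to 0.19). Prlr, the prolactin receptor gene, had 304 and 250 CPM, a ratio of 0.28. Etv5 and Dusp6, genes that ERK signalling raises, had 5.02 and 11.9 CPM and 12.1 and 20.4 CPM, ratios of -1.25 (-1.71 to -0.80) and -0.76 (-1.07 to -0.45).

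The insulin and FOXO list had 0 of 21 intervals above 0 and 12 below, against 15.4% and 27.2% of all genes, with a median of -0.26, and -0.54 in secretory-rich barcodes. Besides Irs2, Ppargc1a and Bcl6, Txnip, a glucose-regulated gene, had 114 CPM in null and 229 CPM in control acinar nuclei, a ratio of -1.01 (-1.10 to -0.91). The factor genes themselves, Foxo3 at 316 and 481 CPM and Foxo1 at 319 and 418 CPM, had ratios of -0.61 and -0.39. Insr, the insulin receptor gene, was at -0.22. The other 9 genes of the list had intervals that included 0, Irs1 and Ddit4 among them with ratios above 0.

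Immediate early and heat shock genes, which move with the handling of tissue, pointed both ways. Dusp1 had a ratio of -1.10 (-1.20 to -0.99), Nr4a3 71.1 CPM in null and 148 CPM in control acinar nuclei, a ratio of -1.05 (-1.18 to -0.93), and Nr4a1 131 and 197 CPM, a ratio of -0.60. The heat shock genes Hspa1b, at 18.0 and 7.63 CPM, and Hsp90aa1, at 109 and 68.2 CPM, had ratios of 1.24 (0.87 to 1.62) and 0.68 (0.55 to 0.81), and Hspa1a had 66 and 16 UMIs, a ratio of 2.001 (1.20 to 2.89). Of 23 genes 6 lay above 0 and 10 below, beside 15.4% and 27.2% of all genes, and Ier2, at 0.39 (0.15 to 0.63), was the one immediate early gene above. The part of tissue handling in these and in the other ratios was not tested.

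The receptor chain of GM-CSF was sparse in acinar nuclei. Csf2ra, the alpha chain gene, had 140 UMIs in null and 189 in control acinar nuclei (11.9 and 16.6 CPM), a ratio of -0.48 (-0.80 to -0.15), and both levels were below those of other eligible barcodes. Stat5b had 371 and 479 CPM, a ratio of -0.37 (-0.43 to -0.31), and the STAT5 target genes Cish and Socs2 had ratios of -0.46 (-0.62 to -0.30) and -0.33 (-0.45 to -0.20). Stat5a and Jak2 were at 0.15 and 0.10 with intervals that included 0. Prolactin and growth hormone also act through STAT5, and Ghr, the growth hormone receptor gene, was at 0.02 (-0.03 to 0.08).

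**Figure D5:**
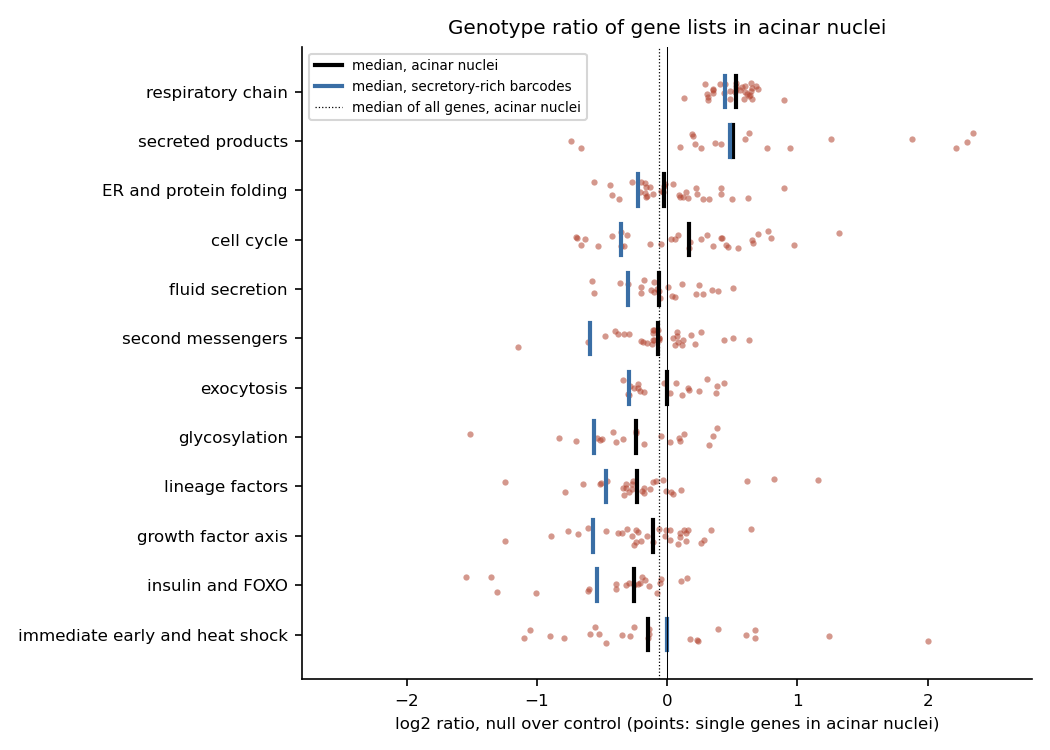
Log2 ratios of null over control (x axis) are plotted for the genes of 12 lists (y axis), with red points for single genes in acinar nuclei, black bars for the list's median there, blue bars for its median in secretory-rich barcodes and a dotted line at the median of all genes in acinar nuclei. The respiratory chain and secreted products had medians of 0.53 and 0.51, beside 0.44 and 0.48 in secretory-rich barcodes, while the cell cycle list had 0.17 beside -0.36.

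The cell cycle list differed between the 2 kinds of barcode, with a median of 0.17 in acinar nuclei and -0.36 in secretory-rich barcodes. Other lists lay about as far apart or further, among them second messengers, at -0.07 and -0.59. Of 32 cell cycle genes, 12 lay above 0 and 7 below in acinar nuclei, beside 15.4% and 27.2% of all genes. Cenpe, a kinetochore motor gene, had 213 UMIs in null and 83 in control acinar nuclei (18.1 and 7.28 CPM), a ratio of 1.32 (0.94 to 1.70), Ect2, a cytokinesis gene, was at 0.97 (0.45 to 1.51), Cenpf at 0.80 (0.46 to 1.14) and Top2a, a topoisomerase gene, at 0.70 (0.51 to 0.90). The replication genes Mcm2, Mcm3, Mcm6, Rrm2 and Pcna had ratios between -0.70 and -0.36. In the core, which leaves out all 8 small subclusters and not the mitotic one alone, Cenpe was at -0.07 and Cenpf at -0.74.

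The share of cycling nuclei did not differ beyond counting error. Subcluster 5 held 2.35% of null acinar nuclei (1.95 to 2.81) and 2.44% of control ones (1.96 to 3.01). With each nucleus thinned to 1000 UMIs, 2.78% of null nuclei (2.35 to 3.28) and 2.24% of control nuclei (1.78 to 2.79) had at least 3 UMIs of the list. At least 5 were seen in 1.88% (1.52 to 2.29) and 1.41% (1.04 to 1.86). The order turned at lower limits. At least 1 was seen in 23.1% (22.0 to 24.3) and 24.8% (23.4 to 26.3), and at least 2 in 5.08% (4.49 to 5.72) and 5.64% (4.89 to 6.45). The intervals overlapped in each case.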

How the data were processed

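The deposited matrices hold raw UMI counts per gene and barcode, 1 matrix per library, made with Cell Ranger 7.0.0 on GRCm39, per the submitters' processing notes. Whether intronic reads were counted and which annotation was used are not given in the sources used here. No barcode filter had been applied that the sources state, and the values were used as deposited.

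The acinar rule was applied to every barcode (at least 1000 UMIs, secretory share below 27%, at least 4 of 10 markers, fewer than 3 of 6 excluding genes). UMIs were summed per library over groups of barcodes and given as CPM. Log2 ratios used genes with at least 50 UMIs over both libraries, with exact conditional binomial intervals (95%). Shares have exact Clopper-Pearson intervals. Both cover counting error only, and a count of 0 was given a floor of 3. Depth was matched by thinning each barcode to 1000 UMIs. Subclusters came from 1500 variable genes, 20 components, 20 neighbours and Leiden clustering at resolution 0.6 (Scanpy 1.11.5, igraph 0.11.9), with NumPy 2.4.6 and SciPy 1.17.1 for the rest. The summing and the intervals were tested on simulated data. Scrublet was run and not used.

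Named genes were the 25 with the highest smaller ratio of acinar nuclei over other eligible barcodes (at least 100 UMIs in each library), the 12 highest and 12 lowest by the interval bound nearest to no difference between genotypes (at least 100 UMIs), and the 8 furthest above and 8 furthest below their ratio in secretory-rich barcodes (at least 200 UMIs). Members of the gene lists are examples chosen after their values were seen. The acinar rule and the lists were chosen with earlier results of these data known. Alternatives changed the limits of the rule, the scaling, the UMI minimum and the depth, removed the secretory-rich profile, or kept the core alone. The last was chosen after seeing the data.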

Additional observations from a re-analysis of the deposited data

Results flagged for a closer look

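Of the 16 genes named for the distance between their ratios, 3 had log2 ratios of null over control with opposite signs in acinar nuclei and secretory-rich barcodes, with each counting interval clear of 0. Mthfd1l had 0.30 (0.0031 to 0.61) in acinar nuclei and -0.90 in secretory-rich barcodes. Klhl8 had 0.74 (0.32 to 1.17) and -0.43. Rapgef4 had 0.50 (0.10 to 0.91) and -0.62. The 16 genes were picked for that distance, which favours opposite signs. The share of all genes that met the condition is not given, so the 3 are not shown to be unusual. The difference between the 2 kinds of barcode was not tested, since there was 1 library per genotype. The median ratio of all genes was -0.06 in acinar nuclei and -0.30 in secretory-rich barcodes. Genes named for other reasons met the same condition, among them Slc37a2 (0.26 and -0.17), Prlr (0.28 and -0.27) and, of the genes the rule used, Prol1 (0.098 and -0.051), Dgkg (0.44 and -0.42), A830018L16Rik (0.29 and -0.55), Dnah11 (0.22 and -0.36), Il1rapl2 (0.10 and -0.72), Ripor2 (0.065 and -0.65) and Hpse2 (0.41 and -0.21).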

How the results depend on the processing

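The acinar share depended most on the limits. Its log2 ratio, -0.10, was -0.00053 with at least 2000 UMIs, -0.25 with a secretory share below 20% and -0.29 with at least 5 markers. It reversed to 0.50 with a share below 35% and to 0.14 when the markers were counted after thinning. As a share of all barcodes it was 0.42, and as a share of barcodes with at least 1000 UMIs 0.68. With at least 3 markers it was 0.0090 (-0.048 to 0.066), and with fewer than 2 excluding genes 0.062 (-0.0095 to 0.13). Both of these intervals included 0. The 35% limit let 5284 control and 259 null barcodes from 30% to 35% into the denominator. Null nuclei numbered 3005 with at least 2000 UMIs and 2570 with a share below 20%, and thinning left 2226 null and 1294 control nuclei. Genes at least 2-fold higher and lower numbered 29 and 22 with at least 200 UMIs and 1590 and 1611 with no minimum. Those higher numbered 301 after subtraction of the secretory-rich profile, which removed 41.0% of null and 40.7% of control acinar UMIs, and those lower numbered 68 after thinning. Genes at least 2-fold above other eligible barcodes numbered 170 with at least 2000 UMIs. Among the settings for named genes, the 2 that changed the UMI minimum left each ratio unchanged by construction, and the 2 scalings shifted all ratios alike. Of 450 values of 39 named genes under 12 settings, these included, 396 stayed within counting error and 18 could not be had. The other values moved further, and among genes whose own interval excluded 0 the sign changed in Kcne1, to -0.67 after the subtraction, and in Cenpe, to -0.073 in the core. Among genes whose interval included 0 the sign also changed beyond counting error in Cntn5 (-1.32 in the core, -0.23 as a mean over nuclei), Kif26b (-0.59 in the core), Dohh (0.15 after thinning) and Imp3 (-0.70 after the subtraction), and within it in Cftr, Itgb2l, Eif4ebp1 and Imp3. Apart from the fewer genes tested under a higher minimum and the wider denominator at the 35% limit, the cause was not tested. No paired analysis was possible because each genotype had 1 library. Genes of few UMIs had intervals wider than 2-fold in places, which limits how firmly they can be placed.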

Other observations

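Genes of the circadian clock had 2 of 19 intervals above 0 and 8 below in acinar nuclei (all genes 15.4% and 27.2%), with a median log2 ratio of -0.15. Arntl, the gene of the core activator BMAL1, had 17.4 CPM in null and 34.9 CPM in control acinar nuclei, a ratio of -1.001 (-1.25 to -0.75), while Dbp, an output gene of the clock, had 63.8 and 40.9 CPM, a ratio of 0.64 (0.47 to 0.81). In secretory-rich barcodes these ratios were -1.02 and 0.87. The time of day of tissue collection is not given in the sources used here.

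Polarity and junction genes had 8 of 27 intervals above 0 and 11 below (all genes 15.4% and 27.2%), with a median of 0.02. Epcam, an epithelial adhesion gene, had 86.2 CPM in null and 61.1 CPM in control acinar nuclei, a ratio of 0.50 (0.36 to 0.64), and Tjp3, a tight junction gene, was at 0.41 (0.22 to 0.61). Ocln, the occludin gene, was at -0.39 (-0.65 to -0.14). Gjb1, a gap junction gene of acinar cells, was at -0.19 in acinar nuclei and 0.30 in secretory-rich barcodes.

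Genes whose products act on macrophages had 3 of 17 intervals above 0 and 3 below, close to or under the 15.4% and 27.2% of all genes. Csf1, the gene of the macrophage growth factor CSF-1, had 13.9 CPM in null and 13.9 CPM in control acinar nuclei, a ratio of 0.0012 (-0.32 to 0.33). Il34, whose product binds the same receptor, had 15.998 and 11.9 CPM, a ratio of 0.42 (0.10 to 0.75). Ccl28, a mucosal chemokine gene, had 223 and 333 CPM, a ratio of -0.58 (-0.65 to -0.51), and Vegfb had 45.0 and 29.6 CPM, a ratio of 0.60 (0.40 to 0.80). These are levels of RNA in nuclei, and protein was not measured.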
